A study of Mus musculus with 200 samples.

Results

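F1 embryos from reciprocal crosses of inbred strains hold the same pair of autosomal genomes and differ in which parent gave which copy. Here 5 embryos of litter 5, from a B6 dam mated to a Cast sire, were compared with 4 embryos of litter 2, from a Cast dam mated to a B6 sire. B6 is C57BL6/J and Cast is Castaneus in the sample labels (CAST/EiJ in the study's methods). All 9 were whole E11.5 embryos freed of extraembryonic tissue. The labels give 48 to 50 somites for the 5 embryos of the B6 mother and 46 to 48 for 3 embryos of the Cast mother, while the fourth was not counted. The embryos were chosen by litter and somite number alone, and they are 9 of the 184 embryo columns in the deposited tables and 18 of the 200 labelled sequencing runs. The rest of the study consists of 7 F1 embryos from litters that lie further apart in stage and of N2 embryos from backcrosses of F1 animals to B6. RNA was measured by 3SEQ, in which reads come from the 3′ ends of polyadenylated transcripts, as read counts per gene and as votes, the reads that a SNP assigns to the B6 or to the Cast allele.

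In a reciprocal cross, the mother gives the egg, the mitochondria, the uterus and the X chromosome of her sons, and both parents leave imprints on a small number of genes. An imprinted gene is read wholly or mostly from the copy of 1 parent, as set by DNA methylation in the egg or the sperm. In the votes, such a gene turns from one strain's allele to the other when the cross is turned around, whereas a gene with a strain difference in *cis* keeps the same higher allele in both crosses. A difference in total level without a change in the allele fraction is of neither kind. Since each direction is 1 litter, the mother's strain, the father's strain, the litter and its day cannot be told apart here, and every p-value below measures the spread among littermates only.

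The embryos of the B6 mother had 15703888 to 31208516 reads on genes and those of the Cast mother 15884995 to 26397492. The labels list the sequencing runs gaIIx and hs1 for the B6 mother and hs1 and hs2 for the Cast mother, and since the deposited counts join both runs of an embryo, run and litter cannot be told apart either. *Xist*, the RNA that coats the inactive X of females, was at 133 to 288 RPM (reads of a gene scaled to a common library size) in embryos 3, 6 and 7 of the B6 mother and in embryo 3 of the Cast mother, and at 0.318 RPM or less in the other 5. The Y-linked *Ddx3y* had 36.2 to 56.4 RPM in these 5 embryos and 0 in the 4 with *Xist*. Embryo 3 of the Cast mother, the only one of its litter with *Xist*, stood apart from its littermates on the second principal component, which held 30.9% of the variance. For example, *Ndn*, a paternally expressed gene of neurons, was at 267 RPM in it and at 26.4 to 30.6 RPM in the other 3. The votes of *Ndn* did not rise with its RPM, with 39 in this embryo and 37 to 38 in the other 3. The counts of called list members without embryo 3 of the Cast mother are given below.

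Total expression differed between the litters in some genes of red blood cells, cartilage and lens, in the metallothioneins and in *Grb10*, all higher with the B6 mother. Some genes of cholesterol synthesis and the chaperone *Hspa5* were higher with the Cast mother. Among the 9604 genes that averaged 5 RPM or more, edgeR's quasi-likelihood test called 1286 (13.4%) at an adjusted p under 0.05. Of these, 570 (5.94%) were higher with the B6 mother and 716 (7.46%) higher with the Cast mother, with median log2 differences of 0.48 and -0.66 against -0.01 over all genes tested. In 458 of the 570 and 562 of the 716 the RPM of the litters did not overlap, as for 1551 (16.1%) of all genes tested. Without embryo 3 of the Cast mother 1853 genes were called, 1104 of them among the 1286, and without embryo 5 of the B6 mother 520, of which 508 were among the 1286. The count was also below the reported one by more than 1.5 times without embryos 4, 6 or 7 of the B6 mother (817, 708 and 667) and without embryos 2 or 5 of the Cast mother (660 and 820).

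The called genes differed in base composition. The last 500 bases of the transcript had a median GC content of 53.4% in the genes higher with the B6 mother, of 39.2% in those higher with the Cast mother and of 46.8% in genes not called. Over the 9359 genes with a sequence, Spearman's rho between GC content and log2 difference was 0.47, across genes of the same libraries, and the plot of fold change against GC content shows the tilt over its whole range. With GC content fitted as an offset, 810 genes were called, of which 617 were among the 1286.

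**Figure D1:**
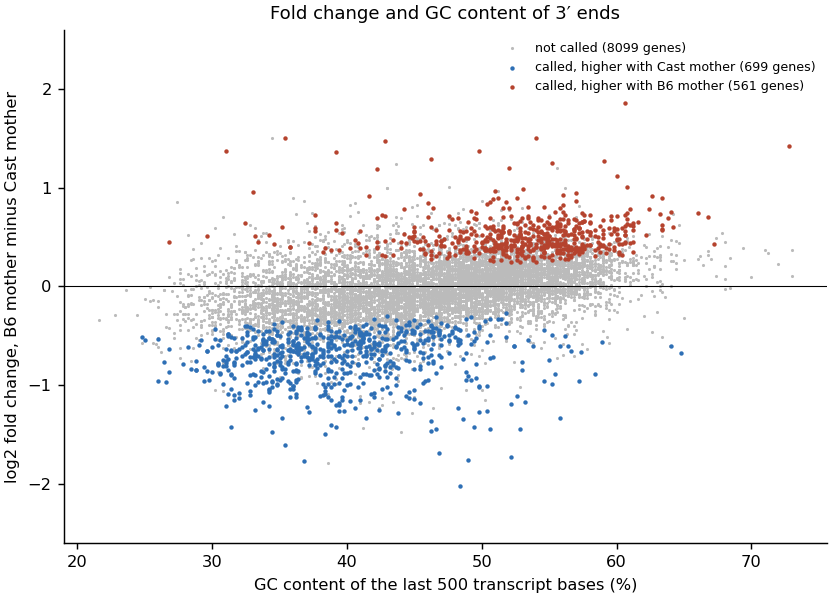
Each point is a gene, with the GC content of the last 500 bases of its transcript (percent, x axis) and the log2 difference between the litters (B6 mother minus Cast mother, y axis, limits ±2.6). Called genes higher with the B6 mother (red, 561 with a sequence) lie to the right of called genes higher with the Cast mother (blue, 699).

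Stage was close and not equal. The counted embryos averaged 49.2 somites with the B6 mother and 47.0 with the Cast mother, a gap of 2.2 (exact permutation test, two-sided p = 0.0714, where 5 against 3 allow no p below 0.0357). The slope of each gene on somite number in 153 N2 embryos was used to predict what such a gap would give. The sign of the prediction matched for 69.1% of the genes higher with the B6 mother and 79.2% of those higher with the Cast mother, and for 59.3% of genes not called. The predicted shifts had medians of 0.04 and -0.06 on the log2 scale. With this prediction as an offset 869 genes were called, 803 of them among the 1286. With somite number as a covariate in the 8 counted embryos 0 genes were called by edgeR, so the cross and the small stage gap could not be separated within these litters.

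*Grb10*, an imprinted adaptor protein that restrains growth, was one of the 3 genes past a Bonferroni-adjusted p of 0.01, beside *Snord15a* and *Eid1*. It lies on chromosome 11 of mm9 from 11830511 to 11938686 (minus strand). The 5 embryos of the B6 mother had 611, 558, 409, 433 and 426 RPM, and the 4 of the Cast mother 179, 236, 204 and 159 RPM. The lowest value of the first litter is above the highest of the second. The log2 difference was 1.37 ± 0.14 (SE; edgeR, adjusted p = 0.0021). The votes of its maternal allele, 73 to 272 per embryo, came to 5.92 to 10.0 VPM (votes scaled like RPM) in the first litter and 3.81 to 7.50 VPM in the second. Unlike the totals they overlap, and their pooled values of 8.03 and 5.65 VPM differ by 0.51 on the log2 scale. *Snord15a*, a small nucleolar RNA on chromosome 7 from 106631295 to 106631442 inside the ribosomal protein gene *Rps3*, had 53.0 to 77.5 RPM with the B6 mother and 10.3 to 18.3 RPM with the Cast mother (log2 difference 2.08 ± 0.17, adjusted p = 0.000568). Reads of such a nested gene and of its host are hard to separate. The host *Rps3* had the opposite sign and was not called (-0.31, adjusted p = 0.265).

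**Figure D2:**
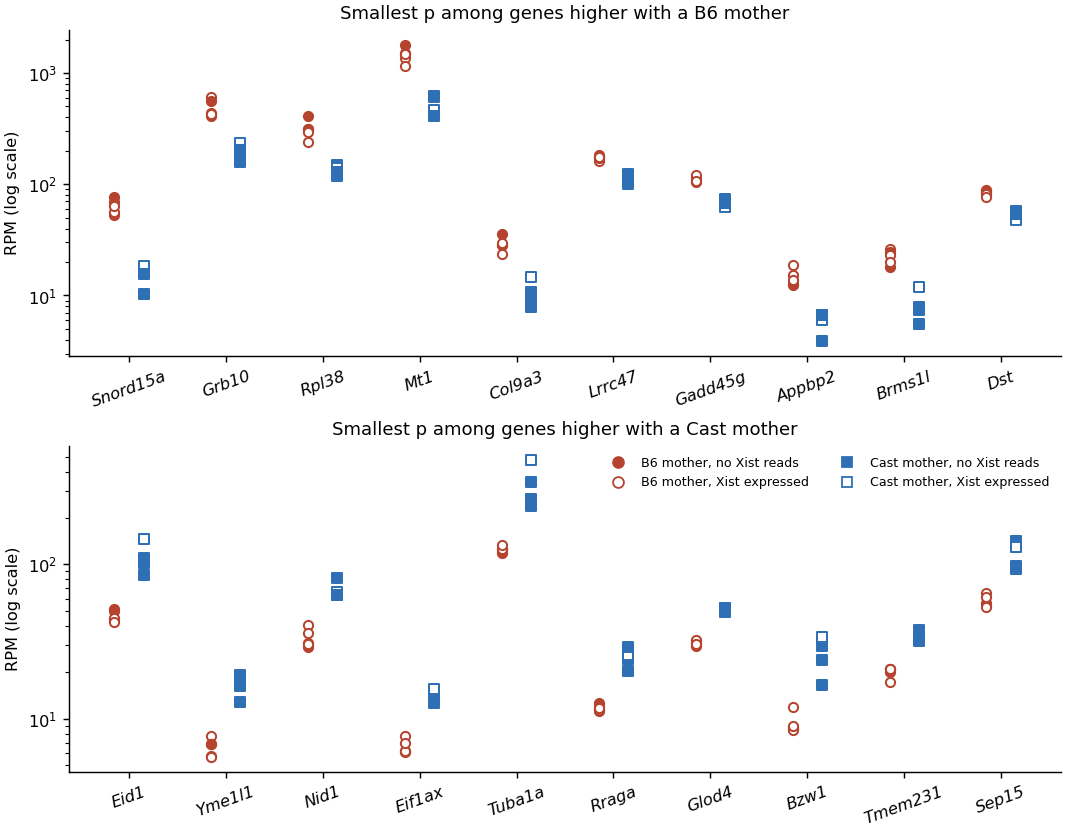
RPM of each embryo (log scale) for the 10 called genes with the smallest p in each direction, with circles for the 5 embryos of the B6 mother and squares for the 4 of the Cast mother, and open symbols for the 4 embryos with *Xist*. The litters do not overlap in any of these 20 genes, which were chosen by their p. They did not overlap in 16.1% of all genes tested, nor in 80.4% and 78.5% of the called genes higher with the B6 and the Cast mother. Embryo 3 of the Cast mother, the open square, lies at 473 RPM for *Tuba1a* above its littermates.

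The metallothioneins *Mt1* and *Mt2* encode small proteins that bind zinc and copper, and they are neighbours on chromosome 8. *Mt1* had 1352, 1504, 1783, 1469 and 1158 RPM in the embryos of the B6 mother and 623, 464, 611 and 412 RPM in those of the Cast mother (log2 difference 1.5 ± 0.16, adjusted p = 0.0021). *Mt2*, named after its values were seen, had 1499, 1412, 1749, 1290 and 1162 RPM against 937, 586, 819 and 710 RPM (0.93 ± 0.16, adjusted p = 0.00834). Both genes were also higher with the B6 mother in the other F1 litters, which are further apart in stage, by 0.66 and 0.90. For *Mt1* the pairs of litters differed (0.84, edgeR's interaction test, adjusted p = 0.0124). Several other leading genes had the opposite sign in the other litters, as given below. Their promoters are shown because metals act on them through short metal response elements, whose core letters TGCACNC and TGCGCNC are in capitals on either strand. The sequences run from 250 bases before to 50 after the start in RefSeq (GRCm38.p6), at chr8:94178839-94179138 for *Mt1* and chr8:94172368-94172667 for *Mt2*, both on the plus strand.
Mt1: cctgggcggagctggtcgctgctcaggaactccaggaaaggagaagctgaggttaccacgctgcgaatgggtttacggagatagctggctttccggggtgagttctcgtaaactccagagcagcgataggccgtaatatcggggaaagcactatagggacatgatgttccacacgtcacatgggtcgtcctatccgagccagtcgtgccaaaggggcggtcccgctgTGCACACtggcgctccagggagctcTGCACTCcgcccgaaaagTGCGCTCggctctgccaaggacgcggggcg
Mt2: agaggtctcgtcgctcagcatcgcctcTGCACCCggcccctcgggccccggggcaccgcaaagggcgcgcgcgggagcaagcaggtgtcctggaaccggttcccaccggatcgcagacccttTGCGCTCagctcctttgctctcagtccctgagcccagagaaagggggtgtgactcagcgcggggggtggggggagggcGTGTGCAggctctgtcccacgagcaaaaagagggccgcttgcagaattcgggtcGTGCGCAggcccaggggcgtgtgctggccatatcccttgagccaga
The 300 bases hold 3 matches for *Mt1* and 4 for *Mt2*. Among 32851 promoters of this length 25.7% hold at least 1 match, 1.97% at least 3 and 0.517% at least 4. A match is a description of the sequence and no measure of binding.

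Other genes among the 10 with the smallest p higher with the B6 mother have different roles. *Rpl38*, a ribosomal protein gene with processed copies in the genome, had 241 to 409 RPM against 118 to 149 RPM (1.27 ± 0.14, adjusted p = 0.0021). All of its votes were Cast in both litters. *Gadd45g*, a stress and cell cycle gene, had 105 to 122 RPM against 62.9 to 73.6 RPM (0.75 ± 0.10, adjusted p = 0.00389). *Brms1l*, a subunit of a histone deacetylase complex, had 18.0 to 26 RPM against 5.54 to 11.9 RPM (1.48 ± 0.19, adjusted p = 0.00403). *Appbp2*, *Lrrc47* and *Dst* complete this group, with log2 differences of 1.38, 0.69 and 0.72, together with *Col9a3* below.

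Genes higher with the Cast mother were led by *Eid1*, an inhibitor of differentiation that acts on histone acetyltransferases. *Eid1*, on chromosome 2 from 125498831 to 125500521, had 49.6, 44.1, 51.1, 45.2 and 42.3 RPM with the B6 mother and 111, 147, 86 and 101 RPM with the Cast mother. The litters do not overlap (log2 difference -1.22 ± 0.13, adjusted p = 0.0021). *Tuba1a*, the tubulin of young neurons, had 118 to 133 RPM with the B6 mother and 267, 473, 240 and 340 RPM with the Cast mother (-1.35 ± 0.16, adjusted p = 0.00325). Its highest value is that of embryo 3, and its difference in the 5 embryos without *Xist* was -1.22 (adjusted p = 0.0132). *Yme1l1*, a protease of the inner mitochondrial membrane, had 5.67 to 7.76 RPM against 12.8 to 19.1 RPM (-1.26 ± 0.15, adjusted p = 0.00325). *Nid1*, a protein of basement membranes, had 29 to 40.3 RPM against 63 to 81.9 RPM (-1.0 ± 0.12, adjusted p = 0.00325). *Eif1ax*, *Rraga*, *Glod4*, *Bzw1*, *Tmem231* and *Sep15* complete the 10, with log2 differences from -0.69 to -1.43.

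Of the 73 called genes that are described by name or counted under the rule for names, 48 kept their call in each of the 9 fits without 1 embryo. Of these, 40 were also called with each offset, for GC content and for stage, and 35 also in the 5 embryos without *Xist*. All 20 genes of the plot of RPM by embryo are among the 35. They were chosen by the smallest p in these same embryos, so keeping their calls in these refits is largely built in. The fit with somite number as a covariate and the fit over 4 litters, which are not among these refits, called 0 genes each.

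**Figure D3:**
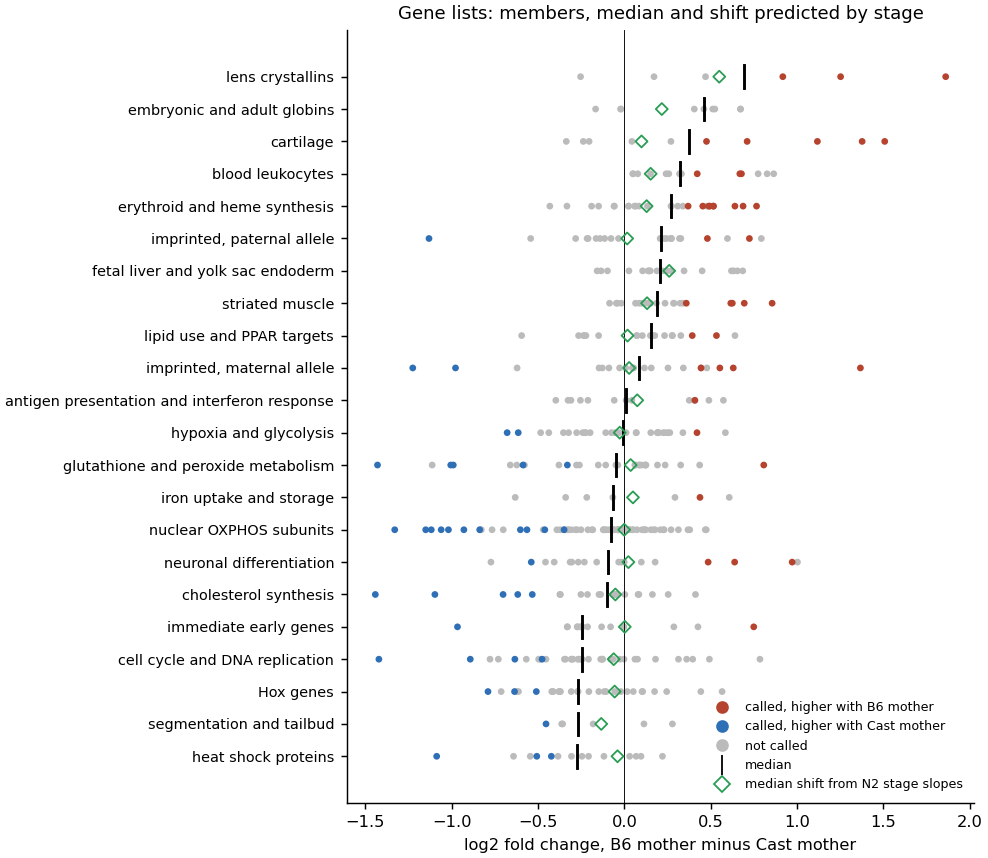
Log2 difference between the litters (x axis, B6 mother minus Cast mother) of each tested member of the gene lists with at least 5 tested members (y axis), with called members in colour, the median of each list as a bar and the median shift predicted from the N2 stage slopes as a diamond. The medians of the lens, globin and cartilage lists lie at 0.69, 0.46 and 0.37.

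Red cells of the E11.5 embryo are mostly primitive erythroblasts from the yolk sac, which mature in the circulation and fill with embryonic globins. On the list of erythroid and heme synthesis genes, 9 of 26 tested members were higher with the B6 mother, 0 lower, and 17 not called, against 5.94% of all genes in this direction. The median log2 difference was 0.27, and the predicted stage shift 0.13. *Slc4a1*, the anion exchanger of the red cell membrane, had 424, 408, 573, 396 and 320 RPM with the B6 mother and 278, 232, 277 and 292 RPM with the Cast mother. The litters do not overlap, and the highest value is that of embryo 5 of the B6 mother (0.69 ± 0.15, adjusted p = 0.0185). *Urod* and *Ppox*, enzymes of heme synthesis, had log2 differences of 0.37 and 0.51 (adjusted p = 0.022 and 0.0233), which were lost in 4 and 3 of the 9 fits without 1 embryo. The count depended on single embryos: it was 1 without embryo 5 of the B6 mother or embryo 2 of the Cast mother, 3 without embryo 5 of the Cast mother, and 4 without embryos 4 or 6 of the B6 mother or embryo 6 of the Cast mother. It stayed at 9 without embryo 3 of the Cast mother. With the offset for stage it was 2, without *Slc4a1* (adjusted p = 0.0615), and with that for GC content 5. In whole embryos, a larger share of red cells and more RNA per red cell cannot be told apart.

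Globin reads made up 8.80%, 9.60%, 8.28%, 8.03% and 7.45% of the reads on genes in the 5 embryos of the B6 mother, and 6.96%, 5.74%, 6.30% and 6.96% in the 4 of the Cast mother. The litters do not overlap (exact permutation test of the means, two-sided p = 0.0159, the smallest possible with 5 against 4). Of the 9 globin genes tested none was called (0 of 9), with a median difference of 0.46. The count was also 0 without embryo 3 of the Cast mother, while 3 were called without embryo 7 of the B6 mother and 4 in the 5 embryos without *Xist*, all higher with the B6 mother. *Hbb-y* and *Hba-x*, the main beta-like and alpha-like globins of primitive red cells, had 44641 to 59045 RPM against 29976 to 45696 RPM (0.46, adjusted p = 0.104) and 19220 to 25254 RPM against 13940 to 18977 RPM (0.40, adjusted p = 0.0673). The adult genes *Hbb-b1* and *Hbb-b2* carried the same count in 15 of 16 F1 embryos and *Hba-a1* and *Hba-a2* in 16 of 16, so each pair was 1 measurement. The early *Hbb-bh1* had -0.17 (adjusted p = 0.533) and the *Hba-a1* pair -0.02, while the other globins had positive differences.

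Cartilage starts as condensed mesenchyme that lays down collagens II and IX and aggrecan. Of 10 tested members of its list 5 were higher with the B6 mother and 0 lower, against 5.94% of all genes in this direction, with a median of 0.37 against a predicted stage shift of 0.10. *Col9a3*, a chain of collagen IX on chromosome 2 from 180332495 to 180356894, had 28.3, 28.3, 35.5, 29.8 and 23.5 RPM with the B6 mother and 7.93, 14.8, 10.8 and 8.50 RPM with the Cast mother. No embryo of the Cast mother reached the lowest of the other litter (1.51 ± 0.18, adjusted p = 0.00332). *Acan*, the aggrecan gene, had 6.6 to 11.8 RPM against 2.83 to 3.86 RPM (1.38 ± 0.20, adjusted p = 0.00642). *Col9a2* had 39.3 to 62.6 RPM against 27.6 to 38 RPM (0.71, adjusted p = 0.013). Without embryo 2 of the Cast mother the count was 3, without its embryo 3 it was 5, and with the stage offset 3, with *Col9a3* and *Acan* and without *Col9a2* (adjusted p = 0.0577). Both had large stage predictions, of 0.34 and 0.44, and larger differences in the other litters, which are further apart in stage (3.08 and 3.74).

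Of 21 tested genes of striated muscle 5 were higher with the B6 mother, 0 lower and 16 not called, against 5.94% of all genes in this direction (median 0.19, predicted shift 0.13), and their summed level overlapped between the litters. They include *Acta1* (0.63, adjusted p = 0.0164) and the embryonic and perinatal myosins *Myh3* and *Myh8* (0.69 and 0.86, adjusted p = 0.0211 and 0.0212). The count was 1 without embryo 5 of the B6 mother, 2 without embryo 2 of the Cast mother, 3 without embryos 3, 6 or 7 of the B6 mother or 5 of the Cast mother, 4 without embryo 3 of the Cast mother, 1 in the embryos without *Xist* and 1 with the stage offset. *Myh3* and *Myh8* were lost without embryo 5 of the B6 mother or 2 of the Cast mother (adjusted p up to 0.0569), and *Acta1* with the stage offset (0.0629). Crystallins fill the fibre cells of the lens. Of 6 tested, 3 were higher with the B6 mother and 0 lower, against 5.94% of all genes in this direction. Their median was 0.69 against a predicted shift of 0.55, and the count was 2 without embryo 3 of the Cast mother. *Crybb1* had 7.54, 9.27, 17.1, 12.9 and 6.41 RPM against 3.27, 2.12, 3.11 and 3.50 RPM. The litters do not overlap, at low levels (1.86 ± 0.31, adjusted p = 0.00819). With the stage offset *Crybb1* alone was called among the 6.

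Summed over the list, erythroid genes had 2568 to 3474 RPM with the B6 mother and 2295 to 2494 RPM with the Cast mother, cartilage genes 936 to 1267 RPM and 820 to 921 RPM, and lens crystallins 137 to 240 RPM and 84.6 to 120 RPM. None of these sums overlapped (exact permutation test, two-sided p = 0.0159 each, the smallest possible, and 0.0423 adjusted over the 8 sums compared). Neuronal genes gave 2153 to 2236 RPM and 1936 to 2172 RPM (exact p = 0.0476, adjusted 0.0952). The sums of muscle, leukocyte and fetal liver genes overlapped (exact p = 0.333, 0.286 and 0.238). Trophoblast and decidua markers, which would show tissue of the placenta, summed to 15.9 to 19.4 RPM and 15.2 to 23.4 RPM over 30 genes (exact p = 0.857), and 1 of them passed the minimum of 5 RPM. The part of these cell types in other differences was not tested.

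Of 14 leukocyte genes 3 were higher with the B6 mother (*C1qc*, *C1qa* and *Elane*, 0.42 to 0.68), against 5.94% of all genes. The count was 2 without embryos 3 or 7 of the B6 mother, 1 without any 1 of the other 7 embryos, 0 with the GC offset and 5 in the embryos without *Xist*. Of 18 genes of the fetal liver and yolk sac endoderm none was called (0 of 18, median 0.20 against a predicted 0.26), while 4 were higher with the B6 mother without embryo 3 of the Cast mother and 4 in the embryos without *Xist*. Of 18 neuronal genes 3 were higher with the B6 mother and 1 with the Cast mother (median -0.10), against 5.94% and 7.46% of all genes. Without embryo 3 of the Cast mother the counts were 4 and 2. *Tubb3*, the tubulin of postmitotic neurons, was higher with the B6 mother (248 to 318 RPM against 157 to 223 RPM, 0.64 ± 0.11, adjusted p = 0.00935), opposite to *Tuba1a*. *Elavl3*, a neuronal RNA-binding protein, was also higher with the B6 mother (0.49, adjusted p = 0.0105). Of 29 Hox genes, which pattern the body axis, 3 were higher with the Cast mother, against 7.46% of all genes in this direction, and 0 with the B6 mother (median -0.27). They are *Hoxa10* (5.05 to 7.32 RPM against 8.31 to 12.4 RPM, adjusted p = 0.0132), *Hoxc9* (33.7 to 42.8 RPM against 51.7 to 60.6 RPM, adjusted p = 0.015) and *Hoxb2* (adjusted p = 0.032). Without embryo 6 of the Cast mother 5 were higher with the Cast mother, and without its embryo 3 another 3 were higher with the B6 mother. In the embryos without *Xist* the split turned, with 2 higher with the B6 mother and 0 with the Cast mother. With the GC offset *Hoxc9* alone of the 3 kept its call.

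*Hspa5* encodes BiP, the main chaperone of the endoplasmic reticulum. It had 61.8, 65.4, 50.2, 55.3 and 56 RPM in the embryos of the B6 mother and 91.7, 121, 150 and 140 RPM in those of the Cast mother. No value of the second litter falls into the range of the first (*Hspa5*, -1.09 ± 0.14, adjusted p = 0.00403). Of 14 heat shock genes 3 were higher with the Cast mother, against 7.46% of all genes, also *Hsph1* (-0.51, adjusted p = 0.0195) and *Hspa9* (-0.42, adjusted p = 0.0369), and the count was 1 without embryo 2 and 4 without embryo 3 of the Cast mother. *Hspa9* was lost in 7 of the 9 fits without 1 embryo. The unfolded protein response acts on many genes of the endoplasmic reticulum through the ER stress response element, written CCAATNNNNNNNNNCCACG. Its match is in capitals in the promoters of *Hspa5* (chr2:34771840-34772139, plus strand) and of *Canx* (chr11:50325624-50325923, minus strand), a lectin chaperone named after its values were seen (RefSeq, GRCm38.p6).
Hspa5: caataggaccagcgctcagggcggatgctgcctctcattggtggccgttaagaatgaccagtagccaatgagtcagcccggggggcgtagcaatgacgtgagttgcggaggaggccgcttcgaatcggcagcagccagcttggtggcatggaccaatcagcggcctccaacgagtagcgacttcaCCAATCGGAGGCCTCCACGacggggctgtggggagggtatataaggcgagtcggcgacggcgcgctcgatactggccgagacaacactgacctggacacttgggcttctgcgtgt
Canx: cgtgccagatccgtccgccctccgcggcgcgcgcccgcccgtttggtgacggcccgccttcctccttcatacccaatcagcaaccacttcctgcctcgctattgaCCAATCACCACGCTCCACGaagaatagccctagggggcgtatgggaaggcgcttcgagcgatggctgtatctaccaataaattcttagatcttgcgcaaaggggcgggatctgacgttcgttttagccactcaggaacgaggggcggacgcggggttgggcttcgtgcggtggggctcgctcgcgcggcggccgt
The motif, searched on both strands, is in 39 of 32851 promoters (0.119%), of 37 symbols. Of these, 13 were tested, and 4 were higher with the Cast mother (*Hspa5*, *Canx*, *Pdia6* and *Spats2l*), against 7.46% of all genes in this direction. Of the rest, 0 were higher with the B6 mother and 9 were not called, and the median of the 13 was -0.18. *Spats2l* was called in the opposite direction in the other F1 litters (1.14, edgeR, adjusted p = 0.00117). *Canx* had 37.2 to 56.5 RPM against 78 to 108 RPM (-0.98, adjusted p = 0.00389), and *Pdia6*, a disulfide isomerase, 110 to 185 RPM against 190 to 227 RPM (-0.50, adjusted p = 0.0212). *Hsp90b1* (-0.64, adjusted p = 0.0613) and *Calr* (-0.13, adjusted p = 0.307), also chaperones of this compartment with the motif, were not called. These motif genes were grouped after their values were seen, and a letter match does not show binding.

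Cholesterol is made from acetyl-CoA by a long chain of enzymes under the control of sterol-sensing transcription factors. Of 22 tested genes of this pathway and its uptake 5 were higher with the Cast mother, against 7.46% of all genes in this direction, 0 higher with the B6 mother and 17 not called, with a median of -0.10. *Fdps*, farnesyl diphosphate synthase, had 24.3, 10.1, 15.7, 19.0 and 26 RPM with the B6 mother and 53.2, 48.8, 41.8 and 67.9 RPM with the Cast mother. The litters do not overlap (-1.44 ± 0.25, adjusted p = 0.0087). *Sc4mol*, a sterol demethylase, had 3.25 to 4.86 RPM against 7.17 to 9.82 RPM (-1.10 ± 0.15, adjusted p = 0.00484), and the X-linked *Nsdhl*, of the next step, 6.33 to 9.75 RPM against 11.5 to 15.5 RPM (-0.70 ± 0.14, adjusted p = 0.014). With the stage offset the count was 3, with the GC offset 5 and in the embryos without *Xist* 3. Leaving out embryo 3 of the Cast mother gave 6 higher with the Cast mother and 1 with the B6 mother.

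The subunits of the respiratory chain that the nucleus encodes work beside those of the mitochondrial genome, which came from B6 in one litter and from Cast in the other. Of 69 tested nuclear subunits 11 were higher with the Cast mother, 0 with the B6 mother and 58 not called, against 7.46% of all genes, with a median of -0.08. *Cox5b* of complex IV had 3.14 to 5.03 RPM against 6.48 to 15.1 RPM (-1.33 ± 0.25, adjusted p = 0.0104). *Sdhd* of complex II had 9.62 to 13.3 RPM against 16.9, 32.9, 16.0 and 34.2 RPM (-1.15 ± 0.23, adjusted p = 0.0135). *Atp5f1* of the ATP synthase had 19.9 to 25 RPM against 26.5, 88.6, 36.2 and 45.2 RPM (-1.06 ± 0.27, adjusted p = 0.0284), where embryo 3 is the highest. The call of *Atp5f1* ended without any 1 of embryos 4 to 7 of the B6 mother (adjusted p up to 0.0641). The count was 2 without embryo 7 of the B6 mother, 3 to 5 without its embryos 4, 5 or 6, 4 to 7 without embryos 2, 5 or 6 of the Cast mother, and 17 (with 2 higher with the B6 mother) without embryo 3 of the Cast mother. With the GC offset it was 6 and with the stage offset 5.

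Glutathione and peroxide enzymes went both ways, with 1 of 29 higher with the B6 mother and 5 higher with the Cast mother (5.94% and 7.46% of all genes). *Gpx1*, the main cytosolic glutathione peroxidase, had 968, 1164, 1281, 920 and 800 RPM against 634, 669, 612 and 502 RPM (0.81 ± 0.14, adjusted p = 0.00838). *Sod1*, the cytosolic superoxide dismutase, had 48.5 to 65.7 RPM against 101, 189, 80.6 and 91.4 RPM (-1.01 ± 0.20, adjusted p = 0.0133), and the mitochondrial *Prdx3* 2.73 to 4.93 RPM against 6.74 to 13.9 RPM (-0.99, adjusted p = 0.0223). The 5 became 2 or 3 without any 1 of embryos 4 to 7 of the B6 mother or 2 of the Cast mother, 2 in the embryos without *Xist*, and 7, with 3 higher with the B6 mother, without embryo 3 of the Cast mother. Of 37 genes of the cell cycle and DNA replication 4 were higher with the Cast mother, against 7.46% of all genes, and 0 with the B6 mother. They are led by *Mcm7* of the replicative helicase (22 to 52.5 RPM against 63.8 to 140 RPM, -1.42 ± 0.25, adjusted p = 0.0087). The count was 1 or 2 without any 1 of embryos 4 to 7 of the B6 mother. Without embryo 3 of the Cast mother 6 were higher with the Cast mother and 2 with the B6 mother, and in the embryos without *Xist* 1 and 2.

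The other lists had few calls, where 5.94% of all genes were higher with the B6 mother and 7.46% with the Cast mother. Hypoxia and glycolysis genes gave 1 higher with the B6 mother and 2 higher with the Cast mother of 30, immediate early genes 1 and 1 of 15 (*Gadd45g* and *Ier5*), lipid and PPAR genes 2 and 0 of 20, antigen presentation genes 1 and 0 of 13, iron genes 1 and 0 of 7, and segmentation genes 0 and 1 of 6. These counts, without embryo 3 of the Cast mother, were 4 and 1 for hypoxia and glycolysis, 1 and 2 for immediate early, 2 and 1 for lipid and PPAR and 2 and 0 for antigen presentation genes, while those for iron and segmentation genes did not change. Of the 3 genes that the study names for an effect of the mother in N2 embryos, *Angptl4* had 93.5 to 122 RPM with the B6 mother and 76.4 to 83.8 RPM with the Cast mother (0.39 ± 0.11, adjusted p = 0.0372). Its call was lost without any 1 of 7 embryos (all but embryos 3 and 4 of the B6 mother), with adjusted p of at most 0.0838. *Gpx3* (0.19, adjusted p = 0.233) and *Polm* (0.48, adjusted p = 0.415) were not called, and the 3 were chosen by the study from other embryos of this series.

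The X chromosome differed with sex and cross together, since the single X of a male comes from the mother. The B6 fraction of X-linked votes was 0.997 and 0.998 in the males of the B6 mother and 0.000327 to 0.000748 in those of the Cast mother. In females, where 1 X is inactivated in each cell, it was 0.277, 0.351 and 0.297 with the B6 mother and 0.274 with the Cast mother. All 4 lie below 0.5, so that the Cast X gave most of the RNA in both crosses. Of 226 X-linked genes tested 50 (22.1%) were called, 18 higher with the B6 mother and 32 with the Cast mother, beside 1236 of 9377 autosomal genes (13.2%). Of the 39 called ones with at least 20 votes in the females, 10 of 16 higher with the B6 mother had a B6 fraction above the pooled 0.294, and 15 of 23 higher with the Cast mother had one below it. *Eif1ax*, a translation initiation factor, had 6.05 to 7.73 RPM against 12.7 to 15.7 RPM (-1.01 ± 0.12, adjusted p = 0.00325), and -1.08 in the 5 males alone. *Xist* (1.19, adjusted p = 0.692), *Tsix* (2.20, adjusted p = 0.225) and *Ddx3y* (-0.62, adjusted p = 0.813) differed between embryos by sex, and none of these 3 was called, nor were the 3 tested genes that escape X inactivation. Without embryo 3 of the Cast mother, which leaves that litter without a female, *Xist* and *Tsix* were called.

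Most tested genes on the lists of imprinted genes changed their allele fraction with the cross, and so did 69 genes outside the lists. The B6 fraction of a gene's votes (BAF) was compared between crosses for 10188 autosomal genes with at least 20 votes in each litter, and edgeR's test of the allele by cross term called 106 (1.04%). Of the 49 tested genes on the lists of imprinted genes 37 were called, 36 of them in the direction of the list. The exception is *Gnas*, a complex locus with maternal, paternal and antisense transcripts, which was on the maternal list and had a BAF of 0.143 with the B6 mother and 0.921 with the Cast mother. Its reads overlap those of the antisense *Nespas*, as *Blcap* overlaps *Nnat* and *H13* overlaps *Mcts2*, and the counting is not stated to use strand. By binomial tests with opposite higher alleles in the crosses, 36 genes (0.353%) were imprinted, 32 of them on the lists. Most called genes of the lists were read almost wholly from 1 parent. *Igf2*, the fetal growth factor, had BAFs of 0.00817 and 0.997, *Dlk1* 0.0568 and 0.911, *Peg10* 0.000544 and 0.996, and the growth inhibitor *Cdkn1c* 0.993 and 0.00256. *Blcap* (0.775 and 0.301), *H13* (0.673 and 0.247) and *Klhdc10* (0.620 and 0.351) had a maternal bias that was partial.

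**Figure D4:**
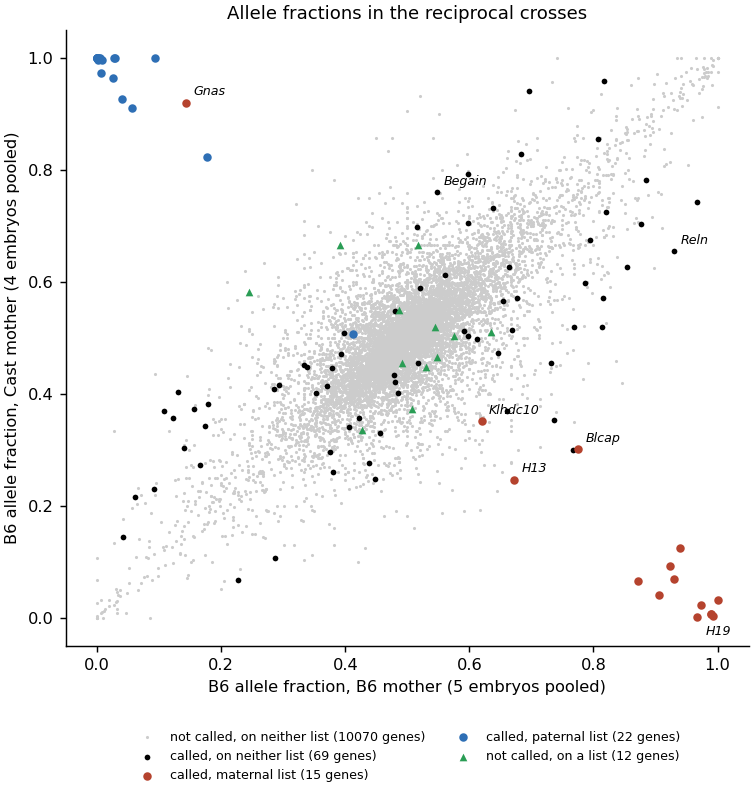
Each point is an autosomal gene, with its B6 allele fraction pooled over the 5 embryos of the B6 mother (x axis) and over the 4 embryos of the Cast mother (y axis). Imprinted genes lie in the upper left (paternal) and lower right (maternal) corners, *Blcap*, *H13* and *Klhdc10* between that corner and the diagonal, and *Gnas* in the paternal corner.

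Summed over all autosomal genes, BAF was 0.494 to 0.496 with the B6 mother and 0.471 to 0.474 with the Cast mother. This gap, of 0.0224 on pooled votes, came from 1 gene: *H19*, a maternal RNA at 8994 to 12450 RPM, contributed 0.0237 of it. Without *H19* and *Igf2* the embryos gave 0.481 to 0.484 and 0.482 to 0.484 (exact permutation test, two-sided p = 0.508).

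*H19* was not read from the mother alone in 1 embryo. In embryo 3 of the B6 mother its BAF was 0.872, while embryos 4 to 7 had 0.998, 0.999, 0.998 and 0.999. The Cast allele, from the father, gave 721 VPM in embryo 3 and 4.97 to 12.1 VPM in its littermates. *Meg3*, a maternal RNA of another imprinted domain on chromosome 12, showed the same in that embryo, with a BAF of 0.968 against 0.998 to 0.999 and 10.6 Cast VPM against 0.224 to 0.406 VPM. *Mirg* and *Rian*, also on the maternal list, were not set apart in this way. *Mirg* had a BAF of 0.914 against 0.888 to 0.982, and *Rian* one of 0.936 against 0.95 to 1, from 31 votes. *Peg12* and *Igf2as*, on the paternal list, also gave votes of the other allele in this embryo alone of its litter, with BAFs of 0.10 and 0.0233 against 0 in the other 4, which are 2 of 20 and 1 of 43 votes. *Igf2*, the paternal neighbour of *H19*, had a BAF of 0.00910 against 0.00520 to 0.0123, *Cdkn1c* one of 0.997 against 0.986 to 0.996, and *Grb10* one of 0.993 against 0.969 to 1. The embryo had the highest total of its litter for both RNAs, 12450 RPM for *H19* (the others 9974 to 10985) and 939 RPM for *Meg3* (the others 589 to 818).

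**Figure D5:**
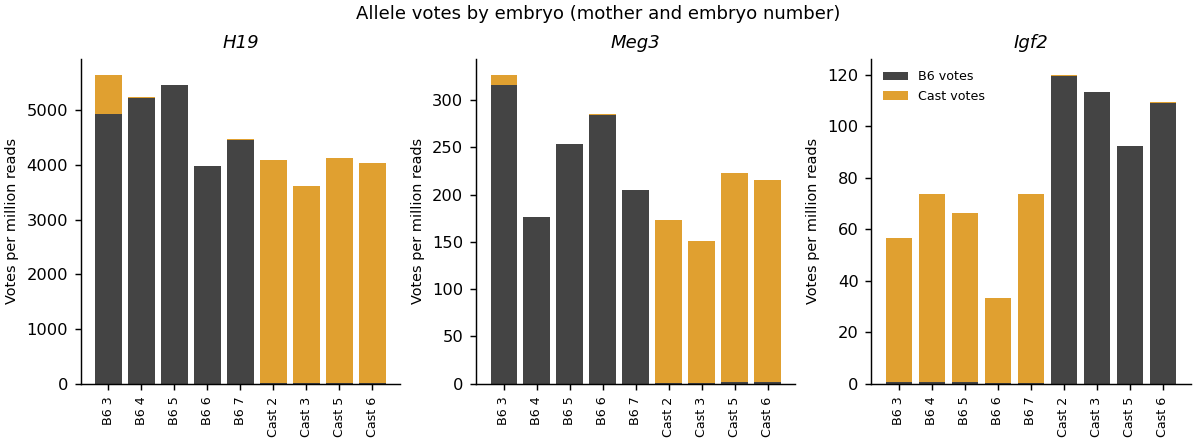
B6 votes (dark) and Cast votes (orange), scaled to library size (VPM), stacked for each of the 9 embryos, for *H19*, *Meg3* and *Igf2*, with the embryos named by mother and number. Paternal Cast votes are visible for *H19* (721) and *Meg3* (10.6) in embryo 3 of the B6 mother.

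An imprinted gene whose 2 strain alleles differ in level should differ in total between the crosses, because a different strain's copy is read. Of 20 tested genes on the maternal list 4 were higher with the B6 mother and 2 with the Cast mother. Of 23 on the paternal list the counts were 2 and 1, where 5.94% and 7.46% of all genes were called in these directions. Without embryo 3 of the Cast mother the counts were 6 and 3 on the maternal list and 5 and 1 on the paternal list. For 6 of the genes called with all embryos, most votes came from 1 parental allele. *Meg3* had 939, 712, 818, 707 and 589 RPM against 456, 423, 568 and 540 RPM (0.63 ± 0.14, adjusted p = 0.0185). *Asb4* had 9.46 to 12.5 RPM against 22.9, 53.5, 16.3 and 16.3 RPM (-1.23 ± 0.30, adjusted p = 0.0251), where embryo 3 of the Cast mother is far above the rest. *Usp29*, paternal, had 7.07 to 10.2 RPM against 22.2, 23.3, 16.6 and 13.8 RPM (-1.13 ± 0.16, adjusted p = 0.00503). *Peg10*, paternal and needed for the placenta, had 213, 204, 238, 207 and 238 RPM against 123, 205, 131 and 94.5 RPM, with 1 overlapping pair (0.72 ± 0.17, adjusted p = 0.0201). *Gnas* had 486, 407, 442, 608 and 484 RPM against 987, 1648, 593 and 751 RPM, which overlap (-0.98 ± 0.24, adjusted p = 0.0249). Its votes, 77 and 63 in the litters, are too few to show which copy gave these reads. Those of its paternal allele differed by -0.24. With *Grb10* these genes are the 6. *Trappc9* (0.55, adjusted p = 0.0105), *Tspan32* (0.44, adjusted p = 0.034) and *Cdh15* (0.48, adjusted p = 0.0296) were called in total with both alleles read (BAFs of 0.530 and 0.449, 0.491 and 0.456, and 0.412 and 0.506). Leaving out single embryos ended the calls of *Asb4* (adjusted p at most 0.0581), *Gnas* (0.0613), *Meg3* (0.0539), *Peg10* (0.0562) and *Cdh15* (0.0758), and not those of *Grb10*, *Usp29* and *Trappc9*. With the stage offset *Meg3* (adjusted p = 0.0826), *Asb4* (0.0541) and *Cdh15* (0.0629) were not called, with the GC offset *Cdh15* (0.0614) was not, and in the embryos without *Xist* *Asb4* (0.0907) and *Cdh15* (0.127) were not. *Tspan32* was not followed under these alternatives.

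The N2 embryos hold the same question within 1 direction of cross, a comparison chosen after the F1 values were seen. There, the expressed copy comes from the F1 parent and is B6 or Cast by chance, so that embryos homozygous for B6 and heterozygous embryos differ in the strain of the copy that is read. For *Grb10*, 30 homozygous and 35 heterozygous embryos of F1 mothers differed by -0.05 on the log2 scale (95% interval -0.29 to 0.19), by permutation within sequencing lanes with p adjusted over the 6 genes at 0.674. The F1 difference was 1.37 in total reads and 0.51 in votes of the expressed allele. *Asb4* had -0.66 (-1.02 to -0.30, adjusted p = 0.00168), the same sign as its -1.23 in the F1 embryos. *Peg10* had -0.29 for B6 minus Cast (adjusted p = 0.0345), where the F1 difference in that sense was -0.72, and *Meg3* had 0.21 (adjusted p = 0.0592) beside 0.63. In the other F1 litters, further apart in stage, *Peg10* went the opposite way, with 132 to 163 RPM with the B6 mother and 215 to 241 RPM with the Cast mother. *Meg3* kept its direction there (1403 to 1808 RPM against 289 to 471 RPM). *Gnas*, taken as paternal from its few votes, had -0.51 (adjusted p = 0.00096). This is the opposite sign of its 0.98 in the F1 embryos in the sense of B6 minus Cast. *Usp29* had 0.30 (-0.14 to 0.74, adjusted p = 0.19) beside 1.13. An unadjusted p under 0.05 in the permutation held for *Asb4*, *Gnas*, *Peg10* and *Meg3* alone, and 3 of them lost it when lanes were not used. N2 libraries had at most 7612442 reads on genes, and genes linked to each locus segregated with it.

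Outside the lists, 69 genes changed their BAF with the cross, by 0.0369 to 1 with a median of 0.126. The binomial tests also called 3 of these 69 imprinted. *Begain*, on chromosome 12 like *Dlk1*, had 0.548 and 0.761 (adjusted p = 1.12e-05), a partial shift in the paternal direction, and *Apeg3*, antisense to *Peg3*, was paternal in full (0 and 1). *Usmg5*, a subunit of the ATP synthase, had 0.816 and 0.959 (adjusted p = 9.95e-06) and was also higher in total with the B6 mother (48.4 to 60 RPM against 16.3 to 32.8 RPM, 1.20 ± 0.20, adjusted p = 0.00838). *Arpc1b* (0.684 and 0.829), *Serinc1* (0.0421 and 0.144), *Epb4.1l2* (0.876 and 0.704), *Cpox* (0.380 and 0.261), *Slc25a44* (0.293 and 0.416) and *Reln* (0.929 and 0.655) kept the same higher allele in both crosses. Without embryo 3 of the Cast mother 296 genes were called in place of 106, and in the embryos without *Xist* 224.

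The difference in total level was mostly shared by both alleles. Of the 1286 called genes 1017 had enough autosomal votes, and in 836 of them (82.4%) both the B6 and the Cast VPM moved in the direction of the total, as in 57.8% of 6773 genes not called. Votes are part of the reads in the totals, and the called genes were selected by those totals. A higher share among them is therefore in part built in. Only 13 of the 1017 were also called by allele ratio. The median absolute change of BAF was 0.0300 in the called genes and 0.0349 over all genes tested. *Mt1* (BAF 0.412 and 0.385), *Col9a3* (0.639 and 0.625) and *Eid1* (0.517 and 0.474) are examples in which the total changed and the allele ratio did not pass the test (adjusted p from 0.402 to 0.988).

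The other F1 litters gave the same contrast at unequal stage, litter 3 of a B6 mother with 58 to 63 somites (3 embryos) and litter 1 of a Cast mother with 41 to 43 (4 embryos, 1 not counted on each side). There, 1949 genes (19.9%) were higher with the B6 mother and 1991 (20.3%) higher with the Cast mother of 9814 tested. Of the 570 genes higher with the B6 mother at matched stage 264 were called in the same direction there and 52 in the opposite one, and of the 716 higher with the Cast mother 179 and 58. *Brms1l* (1.82), *Bzw1* (-0.69) and *Glod4* (-0.90) held their direction and call, *Grb10* had 0.79 (adjusted p = 0.108), and *Tuba1a* (1.20), *Yme1l1* (0.75) and *Rraga* (0.48) were called in the opposite direction. Among other named genes, *Eid1*, *Rpl38*, *Lrrc47*, *Fdps*, *Cox5b*, *Sdhd* and *Atp5f1* also had the opposite sign there. Their change between the pairs of litters, given below, exceeds their difference at matched stage. *Hbb-bh1* and *Hba-x*, globins of the early embryo, had -4.68 and -3.24 there. Without embryo 4 of litter 3 the calls fell from 3940 to 2576. A limma voom fit over 13 counted embryos of all 4 litters, with somite number as covariate and littermates correlated (0.40), called 0 of 9649 genes (0%). It had 386 genes at an unadjusted p under 0.05 and a smallest adjusted p of 0.357. The same fit called 227 without the somite term on all 16 embryos, 150 without the litter block and 2992 without either.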

How the data were processed

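Whole E11.5 F1 embryos were profiled by 3SEQ, the 3′ ends of polyadenylated RNA. Per the methods of the study, the authors trimmed poly(A) ends, cut the longer reads to the length of the shorter runs, aligned with Bowtie2 to mm9 and to a Cast version of it made from SNPs, and counted reads on exons of RefSeq genes. Strand use in counting is not given in the sources used here, so overlapping genes may share reads. The deposited F1 and N2 tables hold these read counts, and the deposited vote tables hold estimated counts of reads per allele, which need not be whole because the authors divided each read over the SNPs it covers. Both runs of an embryo appear as 1 column. Depth of the 9 embryos was 15703888 to 31208516 reads on genes. Littermates differed by 24.8 to 129 times the sampling noise (chi-square per degree of freedom, 16 pairs), so none were copies of 1 library.

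The members and gene lists were chosen with earlier results of these data known. Total expression was tested with edgeR 4.0.16 (R 4.3.3; TMM, quasi-likelihood, Benjamini-Hochberg adjusted p under 0.05) on the counts of genes averaging at least 5 RPM, in the 9 embryos and, by the same test, in the other 7. All 4 litters were fitted with limma 3.58.1 voom with somite number and litter as a random block. Allele ratios were tested with edgeR on votes rounded to whole numbers (autosomal genes with at least 20 votes per cross), and imprinting also by binomial tests on pooled votes (Bonferroni-adjusted p under 0.01 in both crosses, opposite higher alleles). Single values were compared by exact two-sided permutation tests of means. Binomial tests and votes cover counting error only, and PCR copies are not independent molecules.

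Genes named are the 10 called with the smallest p in each direction, up to 3 called members of each list, members of the globin and sex lists, genes named for the mother, imprinted genes called in total or by allele ratio, and the 10 called by allele ratio outside the lists, of which 1 is not reported here. Others are said to be chosen after their values were seen, as are *Canx*, *Mt2*, *Rps3*, *Calr*, *Hsp90b1*, *Pdia6*, *Spats2l* and *Tspan32*. GC content (the longest protein-coding transcript) and mm9 coordinates came from GENCODE matched by symbol (21317 of 22033 genes), and promoters from RefSeq GRCm38.p6 (6883 of 9604 tested genes). Stage slopes came from 153 N2 embryos with somite numbers, and 8 of 168 N2 columns were not used because their names matched none of the labels used here. Alternatives were DESeq2 1.42.0, voom, other normalizations and minimums, offsets for GC content and stage, sex, single embryos left out and the replicate block, some of them chosen after seeing the data. Tables were handled in Python 3.11.15.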

Additional observations from a re-analysis of the deposited data

Results flagged for a closer look

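One embryo lay far from its littermates in 30 of 253 comparisons within a litter, by the gap to the nearest littermate over the range (critical values 0.829 for 4 embryos and 0.71 for 5). Chance gives about 1 in 20 for normally distributed values. This share does not hold for BAFs near 0 or 1, where a stray vote can set an embryo apart. Nor does it hold for *Xist*, *Tsix* and the X-linked fraction in the only embryo of a litter with *Xist*. In embryo 3 of the Cast mother, the only one of its litter with *Xist*, *Xist* was at 217 RPM and *Tsix* at 14.2 RPM, and the B6 fraction of X-linked votes was 0.274. It was also high for *Cdkn1c* (2326 RPM, the others 589 to 769), *Dlk1* (758, the others 442 to 477), *Ndn* (267, the others 26.4 to 30.6), *Epb4.1l2* (80, the others 26.2 to 31.1), *Hspa9* (38.7), *Nsdhl* (15.5) and *Prdx3* (13.9), all in RPM, and had a *Grb10* BAF of 0.0149 where the others had 0. The votes of *Ndn* did not rise with its RPM in embryo 3 of the Cast mother, as given above. Embryo 5 of the B6 mother was high for *Begain* (31.4 RPM), *Dlk1* (828 RPM) and *Elane* (12.9 RPM) and in the BAF of *Blcap* (0.810). Embryo 6 of the B6 mother was low for *Elavl3* (264 RPM), *Tmem231* (17.4 RPM) and the BAF of *Dlk1* (0.0437). Embryo 3 of the B6 mother was high for *Bzw1* (12.0 RPM) and had the low BAFs of *H19* (0.872) and *Meg3* (0.968) and the high ones of *Igf2as* (0.0233) and *Peg12* (0.1) given above. The other embryos far from the rest were embryo 6 of the Cast mother (*Begain*, 17.0 RPM and a BAF of 0.824), its embryo 5 (*Peg3*, BAF 0.997, and *Igf2as*, BAF 1), embryo 7 of the B6 mother (BAF of *Ndn* 0.0118 and of *Usp29* 0.111) and its embryo 4 (*Serinc1*, BAF 0.0274).

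The difference between the crosses was itself different in the other litters, by edgeR's interaction test over 9728 genes (adjusted p under 0.05), for 47 of 98 named genes, where 2754 (28.3%) of all genes tested passed. Many named genes were chosen by their p at matched stage, and the same values enter this contrast. A higher share among them is therefore built in. Stage, litter and runs all differ between the pairs of litters and cannot be told apart. The log2 difference at matched stage minus that in the other litters was *Appbp2* 1.36, *Gadd45g* 0.79, *Gpx1* 0.61, *Gpx3* 0.88, *H13* 0.35, *Hba-x* 3.64, *Hbb-bh1* 4.51, *Hbb-y* 1.69, *Lrrc47* 1.15, *Mt1* 0.84, *Peg10* 1.53, *Rpl38* 1.85, *Snord15a* 1.18, *Tubb3* 0.96 and *Usmg5* 1.47. It was *Acan* -2.37, *Acta1* -0.70, *Arpc1b* -0.52, *Atp5f1* -2.55, *Bzw1* -0.74, *Canx* -0.67, *Col9a2* -0.77, *Col9a3* -1.57, *Cox5b* -2.69, *Crybb1* -3.70, *Dlk1* -0.69, *Eid1* -1.79, *Eif1ax* -1.29, *Fdps* -2.70, *Hbb-b1* -3.09, *Hbb-b2* -3.09, *Hoxa10* -1.09, *Hspa5* -1.01, *Ier5* -1.13, *Igf2as* -1.21, *Meg3* -1.26, *Myh3* -0.76, *Myh8* -2.32, *Nid1* -0.69, *Ppox* -0.51, *Rraga* -1.52, *Sdhd* -1.74, *Sep15* -0.66, *Spats2l* -1.91, *Tmem231* -0.61, *Tuba1a* -2.55 and *Yme1l1* -2.01.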

How the results depend on the processing

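Among 9604 genes, the 1286 calls stayed within 1.5 times under other normalizations, minimums and tools (1205 with limma voom to 1800 with DESeq2), and with autosomal genes only or *Xist* as a covariate. With library totals alone the split was 427 to 815 in place of 570 to 716. A Bonferroni-adjusted p under 0.01 left 3 (2 higher with the B6 mother, 1 higher with the Cast mother). Leaving out single embryos gave 520 to 1853 calls, 182 to 899 higher with the B6 mother and 338 to 954 higher with the Cast mother. Somite number as a covariate, without the uncounted embryo, left 0 (0 and 0) and turned *Gnas* to 0.11 (adjusted p = 0.916). The offset for GC content gave 810 (342 and 468), the offset from N2 stage slopes 367 higher with the B6 mother, and the embryos without *Xist* reads 406 higher with the Cast mother. These 3 alternatives were chosen after seeing the data, and the cause of each change was not tested. Embryo numbers 3, 5 and 6 occur in both litters and are only names: deviations of embryos with the same number had correlations of 0.41, 0.09 and 0.19. With the replicate block 1 gene was called (1 and 0), and 70 by allele ratio in place of 106. In the other litters a Bonferroni-adjusted p under 0.01 left 99 (88 and 11), and leaving out single embryos gave 2576 to 4930, with 1187 to 2375 higher with the Cast mother. The 4-litter fit called 227, 150 and 2992 without the somite term, without the litter block and without both. By allele ratio 40 genes passed the Bonferroni threshold, 90 to 296 were called without single embryos and 224 in embryos without *Xist* reads. For the N2 embryos, with lanes not used, 3 genes among *Asb4*, *Gnas*, *Peg10* and *Meg3* lost an unadjusted p under 0.05 in the permutation test. Another 2, with *Usp29* among them, kept their side of it. *Grb10* went from -0.05 to 0.046 (p = 0.878). Genes under 20 votes per cross, whether for want of reads or of a SNP, could not be tested by allele ratio, and a minimum of 50 or 100 votes gave 93 and 86 calls.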
